A study of Mus musculus with 36 samples.

Results

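The genes described here build and control motile cilia, the beating hair-like organelles of ependymal cells, and were followed in bulk hippocampal RNA of mice carrying APP, Tau or both transgenes, trained or left naive. They were chosen by a rule on names, set with earlier results of these data known. It took every symbol in the count table made of Cfap, Dnah, Dnai, Rsph or Tekt and a number (with an optional letter for Dnah and Rsph), plus Foxj1. The rule found 59 genes among 50559 symbols, of which 41519 had a count and 25382 passed the filter on low counts and were tested. The families were 31 Cfap, 15 Dnah, 7 Rsph and 5 Tekt genes with Foxj1. No symbol of the table had the Dnai form. All 59 genes passed the filter and all had a count in every library.

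The study sequenced 36 libraries of female mice at 6 months of age to ask how amyloid and tau transgenes change hippocampal gene expression with and without spatial learning. The APP transgene (J9 line) encodes human amyloid precursor protein with the Swedish and Indiana mutations under the PDGF-B promoter, and the Tau transgene (PS19 line) encodes human P301S tau under the mouse prion promoter. Trained mice were handled for 3 days and swam 6 trials a day for 5 days in a water maze. They had a probe test 24 hours after the final trial and were dissected 2 hours after it. Naive mice were handled for 3 days only.

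The 8 groups were trained APP/Tau mice with both transgenes (n = 3), trained APP (n = 3), trained Tau (n = 4) and trained WT (n = 5), and naive APP/Tau (n = 6), naive APP (n = 5), naive Tau (n = 4) and naive WT (n = 6). WT mice carried neither transgene. All groups, WT included, also carried Pvalb-Cre and the RiboTag allele, which tag ribosomes of parvalbumin neurons, but the libraries used here are the input fraction, RNA of the whole tissue before any pull-down. In such bulk RNA, fewer ciliated cells and less ciliary RNA per cell cannot be told apart. Separate mice are not stated for the libraries, so each p-value rests only on how far samples of a group spread.

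A motile cilium is a ring of doublet microtubules around a central pair. Dynein arms on the doublets slide them past each other, radial spokes pass signals from the central pair to the arms, and tektins and other proteins inside the doublet walls stiffen them. In the brain, ependymal cells lining the ventricles carry tufts of motile cilia that move cerebrospinal fluid, choroid plexus epithelium has related cilia, and neurons and astrocytes each have a single immotile primary cilium that shares only some of these proteins. The transcription factor Foxj1 switches on the motile cilium genes together with RFX factors, which bind a palindromic motif called the X-box.

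Since motile cilium genes are known to share these regulators, the promoters of the chosen genes were searched in RefSeq (GRCm38.p6, an older build than the one the counts rest on, over 250 bases before to 50 bases after each start site). Matching by symbol gave 55 promoters of 48 genes. The X-box letters GTNNCCNNGGNNAC, which read the same on both strands, were in 6 of the 55 (10.9%), against 618 of 32851 promoters in the table (1.88%). Those 6 belonged to Cfap126, Cfap206, Cfap298, Cfap77, Rsph9 and Tekt4. The 5 matches lying wholly before the start site are shown because the X-box is the motif that RFX factors are known to bind. The letters searched are a loose form of it, and binding to these matches was not tested. Capitals mark the X-box, and each sequence is on the strand of its gene. They are Cfap126 at chr1:171122938-171123001 (plus strand, motif ending 68 bases before the start site), Cfap206 at chr4:34730207-34730254 (minus strand, 9 bases before), Cfap298 at chr16:90934999-90935062 (minus strand, 174 bases before), Cfap77 at chr2:29055264-29055316 (minus strand, 222 bases before) and Tekt4 at chr17:25471405-25471468 (plus strand, 146 bases before).
Cfap126: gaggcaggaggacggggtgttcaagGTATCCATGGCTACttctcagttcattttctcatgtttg
Cfap206: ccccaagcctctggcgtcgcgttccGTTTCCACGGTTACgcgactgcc
Cfap298: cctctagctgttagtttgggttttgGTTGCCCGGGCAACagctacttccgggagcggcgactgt
Cfap77: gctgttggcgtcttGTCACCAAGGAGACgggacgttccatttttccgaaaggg
Tekt4: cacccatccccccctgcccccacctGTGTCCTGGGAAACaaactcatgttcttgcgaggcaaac

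The shorter RFX half-site GTTGCC or its complement GGCAAC, which lies inside some X-boxes such as that of Cfap298, was in 19 of the 55 promoters (34.5%), against 12.5% of all. The forkhead letters GTAAACA or TGTTTAC were in 4 (7.27%), against 3.65% of all. A match is a description of letters, not a binding site. The 6 X-box genes were not alike in expression: within groups of libraries, the correlation of a gene's log2 CPM with the mean of the other ciliary genes was r = 0.724 for Cfap206, 0.656 for Cfap126, 0.599 for Cfap77 and 0.572 for Rsph9, but 0.139 for Tekt4 and -0.0363 for Cfap298 over the 36 libraries.

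Libraries held 69.15 to 124.8 M counts (median 85.44 M), so precision was not set by depth except for the rarest genes. Every pair of libraries of the same group differed by more than sampling noise (chi-square per degree of freedom 14.37 to 156.6 over 68 pairs). Prnp, whose promoter drives the Tau transgene, gave 1423 to 2142 CPM (the count scaled to library size) in 16 of 17 Tau-labelled libraries, against 727.9 to 878.8 CPM in 19 libraries without Tau. The exception, the library labelled Tau trained replicate 4, gave 846.1 CPM and so went against its label, and the comparisons that use it are given with and without it. Usp16, which the labels do not name, gave 12.9 to 14.85 CPM in all 17 APP libraries and 24.83 to 30.32 CPM in the 19 others, so no library went against its APP label by it. That check was chosen after its values were seen. The libraries also fell into 21 rich and 15 poor in choroid plexus transcripts, a tissue of the ventricle beside the hippocampus. That split touches the results and is given with them.

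The ciliary genes were expressed at low levels. Mean CPM over the 36 libraries ran from 0.158 to 107.3 with a median of 3.11. Of the 59 genes, 13 were under 1 CPM, 31 lay between 1 and 10 CPM, and 15 were above 10 CPM. Their CPM summed to between 419 and 581 in a library, and Cfap36 alone made 21.7% of the sum. Levels of different genes are compared below only per length, as mean CPM per kilobase of annotated exon (GENCODE, GRCm38), which 57 of 59 symbols had. Cfap410 and Cfap47 had none.

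Foxj1, the regulator, had 5.097 CPM per kilobase, against a median of 0.514 over the genes with a length. Among the dynein heavy chains the median was 0.215 CPM per kilobase. Dnah9, an outer arm motor of the distal cilium, was highest at 1.443 CPM per kilobase, and Dnah8, an outer arm motor known from sperm, was lowest at 0.027 CPM per kilobase. The radial spoke genes had a median of 1.93 CPM per kilobase, led by the spoke head genes Rsph9 at 7.553 and Rsph1 at 4.333 CPM per kilobase. The tektins had a median of 0.514 CPM per kilobase. Tekt5, a tektin best known from sperm, stood first at 4.334 CPM per kilobase.

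The Cfap genes had a median of 0.863 CPM per kilobase, and their upper end was made of genes that are not confined to the moving axoneme. Cfap36, which binds the small GTPase Arl3 of the primary cilium, had 38.85 CPM per kilobase. Cfap298 and Cfap300, cytoplasmic factors for dynein arm assembly, had 15.61 and 6.489 CPM per kilobase. Cfap97 had 7.064 CPM per kilobase and Cfap20, a protein of the inner junction of the doublet, 5.626 CPM per kilobase. Markers of sperm and spermatids were near the floor: the summed CPM of 20 such genes was 6.27 to 9.49 in a library, with Smcp and Akap4 at 0 in every library.

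Some values are uncertain because reads can be shared. Use of strand by the counter is not given in the sources used here, and some genes share over 10% of their annotated exon bases with a neighbour. Among them are Cfap298 (44.2%, with Gm49727), Tekt2 (20.8%, with Gm12945) and Dnah3 (10.5%, with Lyrm1), all on opposite strands, and Cfap299 (19.1%, with E030032P16Rik on the same strand). Of the 150-base windows of its longest transcript, Rsph3a shared 52.6% with Rsph3b, and Rsph3b 59.4% with Rsph3a. The inner arm genes Dnah7a, Dnah7b and Dnah7c shared 4.88 to 7.78%.

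**Figure D1:**
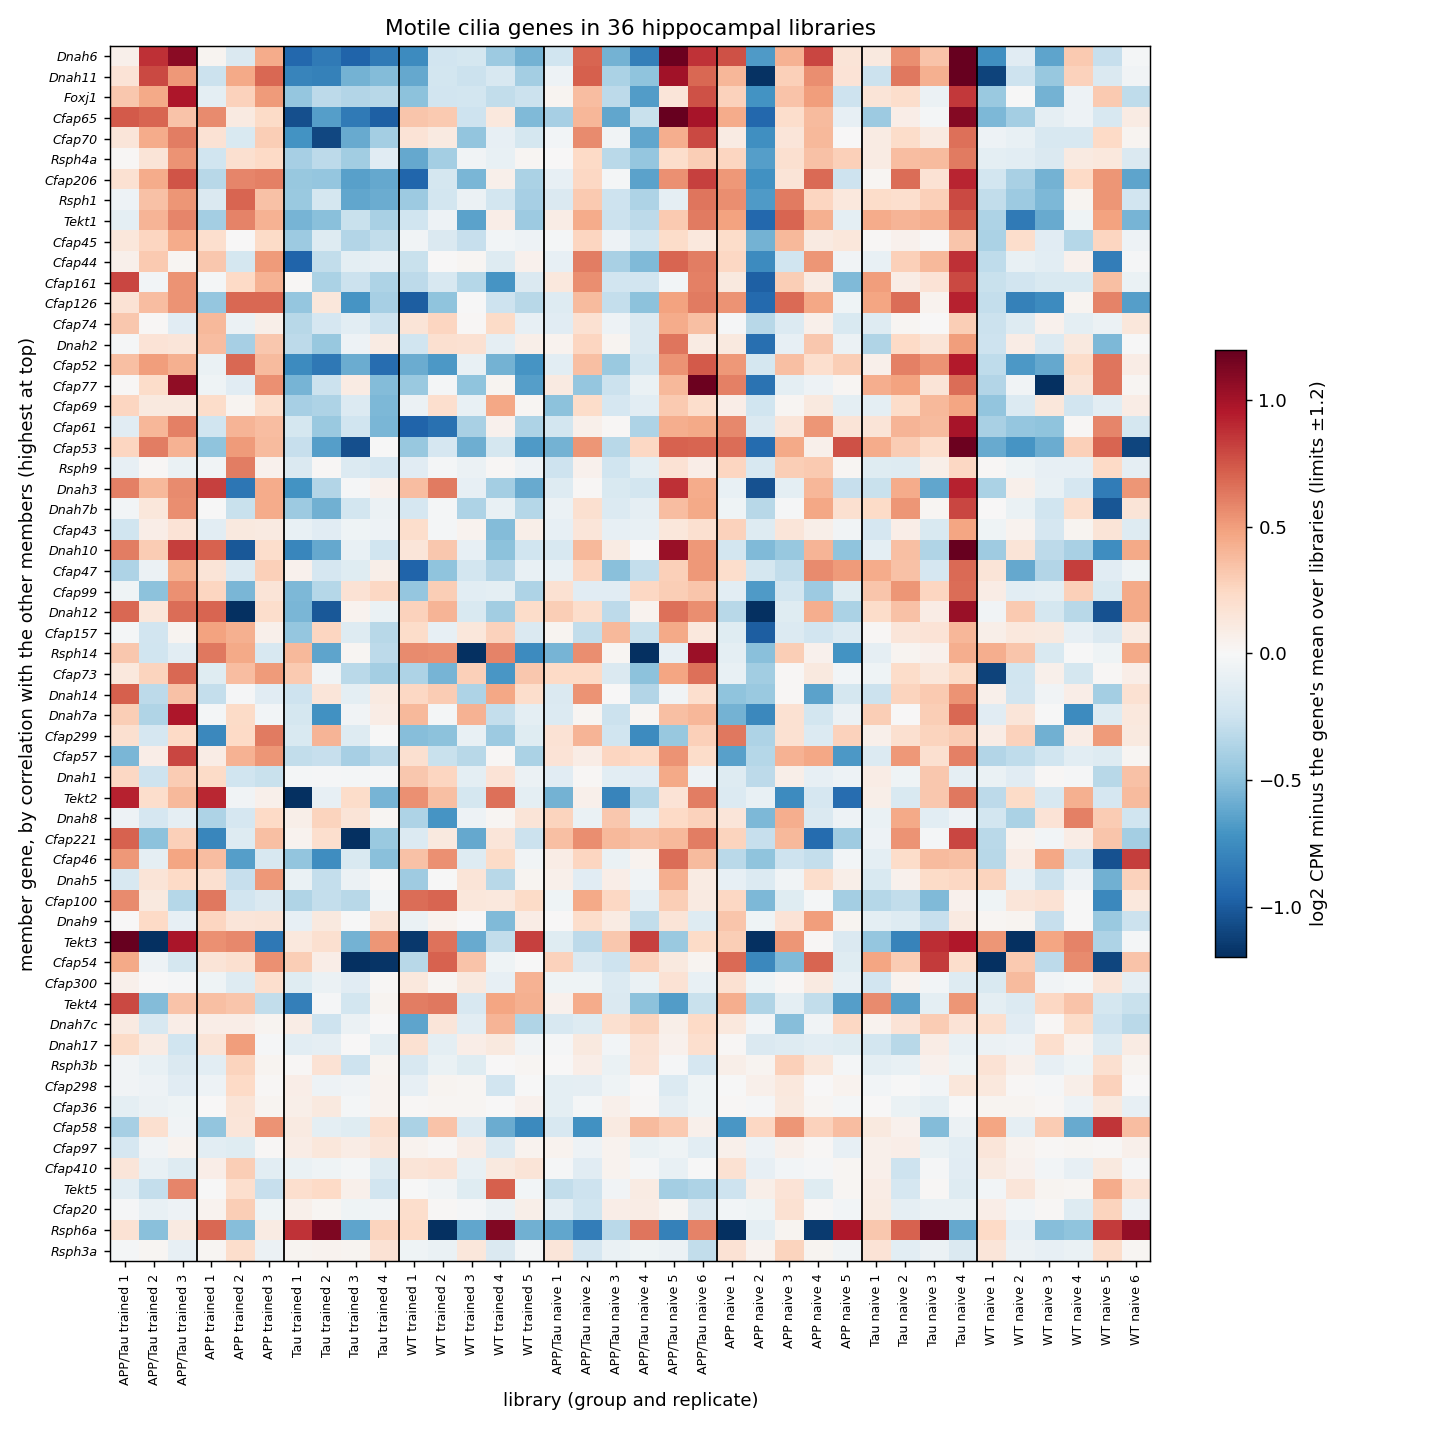
Log2 CPM of each of the 59 genes in each of the 36 libraries, as the difference from the gene's mean over libraries. Columns are libraries by group. Rows are genes by their within-group correlation with the other genes, highest at the top, an order taken from these same values. Tau naive replicate 4 holds the highest value of 19 genes, APP naive replicate 2 holds the lowest value of 12, and the 4 trained Tau columns are mostly below the mean.

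Within groups, the ciliary genes varied more than most genes and many varied together. The SD of log2 CPM pooled within groups had a median of 0.337 over the 59 genes, against 0.249 over all genes tested. Removing the group means and correlating each gene with the mean of the other 58 over the 36 libraries gave a median Pearson r of 0.41, from -0.307 (Rsph3a) to 0.855 (Dnah6). These correlations are descriptions, since the points share library depth and dissection. In all, 24 genes had an r above 0.5 and 15 an r below 0.2.

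Among the genes that varied together, behind Dnah6, an inner arm motor, came Dnah11, an outer arm motor (r = 0.825), Foxj1 (r = 0.818), Cfap65, a central apparatus protein (r = 0.816), Cfap70 of the outer dynein arm (r = 0.777) and the spoke head gene Rsph4a (r = 0.747). The steadiest genes stood apart from them. Cfap36 (SD 0.0607), Cfap97 (0.0793), Cfap298 (0.0893), Cfap410 (0.112) and Cfap20 (0.117) had the smallest pooled SDs of log2 CPM. The largest belonged to rare transcripts and a few others: Tekt3 (0.89), Rsph6a (0.79, the testis relative of Rsph4a), Rsph14 (0.57), Cfap54 (0.57) and Dnah12 (0.556). Cfap54, a central apparatus gene, was not rare. It ranged from 5.29 to 28.4 CPM with an r of 0.175. Its 4 lowest libraries were WT naive replicates 1 and 5 at 5.29 and 7.35 CPM and Tau trained replicates 3 and 4 at 6.79 and 6.97 CPM.

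The label of motile, ependymal cilia was checked against lists of other genes. Each list was scored as its mean log2 CPM per library, and its correlation with the ciliary score was taken after removing group means over the 36 libraries. The score of the motile cilium genes outside the naming rule, such as dynein assembly and docking factors, followed the 59 genes with r = 0.931 and Spearman rho = 0.867, and r was 0.893 without the 2 libraries farthest from the median. For 22 ependymal markers outside the naming rule, some of them cilium genes, r was 0.712 (rho = 0.663, 0.678 without 2 libraries). For 16 genes of multiciliated cell fate and centriole amplification r was 0.494 (rho = 0.443, 0.419 without 2). For 60 primary cilium and transport genes r was 0.395 (rho = 0.359, 0.448 without 2). The ependymal list shares Ak7 with the motile cilium list, Acta2 with the mural list and Gja1 with the astrocyte list. It also holds Fam183b, another name of Cfap144, so its r is partly one of cilium genes with cilium genes. Thalamic markers had r = 0.195 but rho = 0.384, and striatal markers r = 0.144 and rho = 0.191. Sperm markers (r = -9.12e-05, rho = 0.00283), astrocyte markers (r = -0.174, rho = -0.0785), microglia markers (r = -0.078, rho = -0.0937), hippocampal neuron markers (r = -0.239, rho = -0.237) and mural and meningeal markers (r = 0.0418, rho = 0.128) had values near 0 or below it.

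Choroid plexus markers need the 2 kinds of library kept apart. Over the 36 libraries with group means removed, choroid markers had r = 0.549 (rho = 0.528, 0.547 without 2 libraries). The correlations within each kind of library were taken with group means left in, so differences between groups enter them. Across the 21 choroid-rich libraries the ciliary score and the choroid score had r = 0.757 (rho = 0.612), and across the 15 choroid-poor libraries r = 0.246 (rho = 0.0429). Ependymal markers, some of them cilium genes, followed the ciliary score in both. They had r = 0.823 (rho = 0.766) in rich libraries and r = 0.632 (rho = 0.411) in poor ones. The mean ciliary score was 0.0738 in rich libraries and -0.103 in poor ones.

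**Figure D2:**
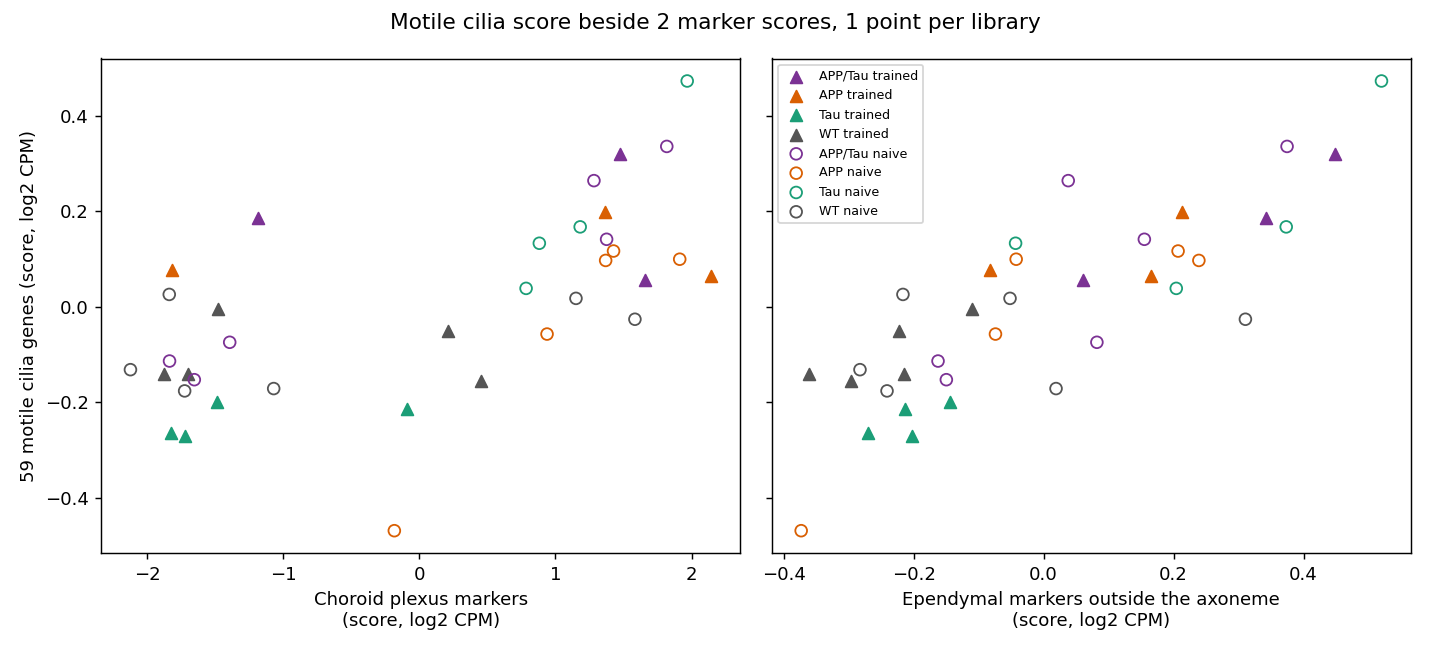
Ciliary score of each of the 36 libraries (mean log2 CPM of the 59 genes minus its mean over libraries, vertical axis) against the scores of choroid plexus markers (left) and ependymal markers (right), with colour for the genotype, triangles for trained and circles for naive mice. The choroid scores lie in 2 clusters with a gap between -1.07 and -0.183, and the ependymal scores form 1 rising cloud.

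By group, the ciliary score was highest in naive Tau mice and lowest in trained Tau mice. It was 0.203 ± 0.188 in naive Tau (SD, n = 4), 0.188 ± 0.132 in trained APP/Tau (n = 3), 0.113 ± 0.0741 in trained APP (n = 3), 0.0669 ± 0.209 in naive APP/Tau (n = 6), -0.0425 ± 0.249 in naive APP (n = 5), -0.0769 ± 0.0937 in naive WT (n = 6), -0.0989 ± 0.0668 in trained WT (n = 5) and -0.237 ± 0.0357 in trained Tau (n = 4). Neighbours in that order differed by less than their spread except for the last step, where every trained Tau library, from -0.271 to -0.199, lay below every trained WT library, from -0.156 to -0.00538. At -0.199, the highest of the 4 trained Tau values came from the library labelled Tau trained replicate 4. As summed CPM of the 59 genes the 2 ends were 451.9 ± 8.82 in trained Tau and 516.4 ± 43.2 in naive Tau.

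**Figure D3:**
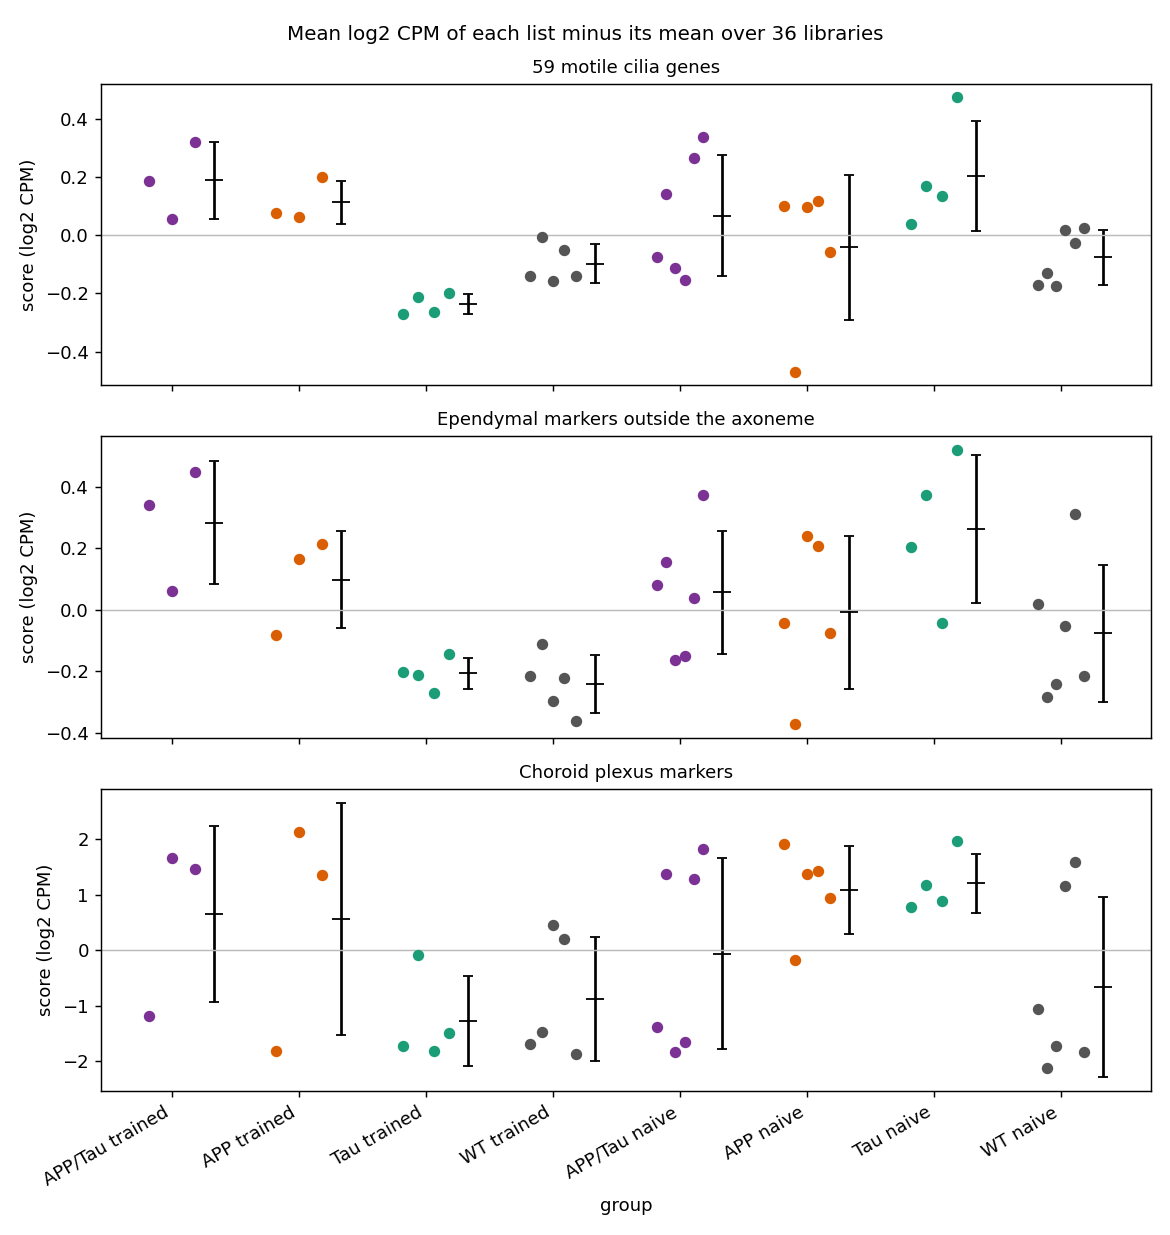
Scores per library (points, log2 CPM) with group mean and SD (bars) of the 59 ciliary genes, ependymal markers and choroid plexus markers, for trained groups and then naive groups. In the ciliary panel, trained Tau libraries sit from -0.271 to -0.199 with little spread, while naive Tau libraries sit from 0.0386 to 0.473 and naive APP libraries from -0.469 to 0.117.

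Trained Tau against naive Tau mice asks whether training moved these genes on the Tau background, and it gave the widest separation. Most axonemal genes were lower in trained Tau mice: 46 of 59 had a lower mean, 22 were lower in every trained than in every naive library, and the median log2 difference was -0.42, against -0.013 over all genes. None passed edgeR's quasi-likelihood test at an adjusted p of 0.05, as none of all 25382 genes did (0%). At an unadjusted p under 0.05 there were 30 of 59, 28 of them lower (50.8%), against 14.6% of all genes. DESeq2 called 12 of the 59 and limma-voom 11, against 2.12% and 3.07% of all genes, and edgeR fitted to these 2 groups alone called 8, against 1.28%. All these calls were lower in trained mice. The 22 genes without overlap compare with 5.07% of all genes lower in every library, and 1 gene, Cfap97, was higher in every library, against 5.65%.

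Without the library labelled Tau trained replicate 4, edgeR again called 0, with 25 of 59 at an unadjusted p under 0.05 against 13.1% of all genes, and a median of -0.45. Then 23 genes were lower in every library, against 7.24% of all genes. Leaving out Tau naive replicate 4 in place of it gave 19 at an unadjusted p under 0.05 and a median of -0.285. Leaving out Tau naive replicate 1 gave 6 genes called (Cfap52, Cfap69, Cfap70, Dnah11, Dnah6 and Rsph4a). The share of all genes is not given here for either fit without a naive library, so these counts cannot be set against it.

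Foxj1 had 9.27, 10.3, 10.0 and 10.1 CPM in trained Tau libraries, against 14.2, 14.8, 12.2 and 23.1 CPM in naive Tau libraries. The groups did not overlap, and Tau naive replicate 4 was far above the rest. The log2 difference was -0.70 ± 0.25 (SE; edgeR adjusted p = 0.195).

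Among the dynein motors, the inner arm gene Dnah6 had 2.66, 2.85, 2.63 and 2.85 CPM in trained Tau libraries, against 5.59, 7.56, 6.50 and 13.4 CPM in naive Tau libraries. Every trained value was about alike and the naive values spread widely above them, a log2 difference of -1.59 ± 0.38 (edgeR adjusted p = 0.0763, DESeq2 0.00757, limma-voom 0.0203). The outer arm gene Dnah11 had 1.64, 1.62, 1.93 and 1.99 CPM in trained Tau libraries, against 2.39, 4.44, 3.85 and 6.90 CPM in naive Tau libraries (-1.31 ± 0.34, edgeR adjusted p = 0.0986). Of the 15 motors 12 had a lower mean in trained mice, with a median log2 difference of -0.345, and 4 were lower in every library (Dnah6, Dnah11, Dnah7b and Dnah12).

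In the radial spokes, the head genes Rsph4a and Rsph1 were lower in every trained Tau library and the stalk gene Rsph3a was not. Rsph4a had 4.85, 5.14, 4.80 and 5.84 CPM in trained Tau libraries, against 6.86, 8.28, 8.36 and 9.86 CPM in naive Tau libraries (-0.70 ± 0.18, edgeR adjusted p = 0.0943). Rsph1 had 4.17, 4.93, 3.69 and 3.78 CPM in trained Tau libraries, against 6.65, 6.55, 6.97 and 9.89 CPM in naive Tau libraries (-0.86 ± 0.25, edgeR adjusted p = 0.117). Rsph9, the third head gene, had 10.7, 12.1, 10.7 and 10.4 CPM in trained Tau libraries and 10.8, 10.8, 12.6 and 14.3 CPM in naive Tau libraries, so its groups overlapped. Rsph3a had 10.2, 10.3, 10.2 and 11.3 CPM in trained Tau libraries, against 11.2, 9.18, 9.49 and 8.84 CPM in naive Tau libraries, which also overlapped.

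Inside the doublet walls, Cfap52, a protein of the inner junction, had the smallest p of all 59. It had 1.37, 1.27, 1.53 and 1.22 CPM in trained Tau libraries, against 2.43, 3.55, 3.39 and 4.51 CPM in naive Tau libraries, a log2 difference of -1.36 ± 0.27 (edgeR adjusted p = 0.0579, DESeq2 0.00157, limma-voom 0.00953). The highest trained value was well under the lowest naive one. The filament gene Tekt1 had 1.76, 1.84, 2.15 and 1.98 CPM in trained Tau libraries, against 3.54, 3.47, 3.54 and 4.32 CPM in naive Tau libraries (-0.95 ± 0.28, edgeR adjusted p = 0.119). Cfap20, which sits beside Cfap52 at the inner junction, had 26.1, 25.3, 24.0 and 24.3 CPM in trained Tau libraries and 26.7, 23.1, 23.6 and 23.7 CPM in naive Tau libraries, so its groups overlapped.

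In the central apparatus and other Cfap proteins, Cfap69, known in mice for sperm flagella and olfactory cilia, had 12.2, 12.4, 14.3 and 11.1 CPM in trained Tau libraries, against 14.8, 18.8, 21.1 and 22.4 CPM in naive Tau libraries. The log2 difference was -0.62 ± 0.15 (edgeR adjusted p = 0.0763, DESeq2 0.0107). Cfap65 had 3.82, 5.05, 4.42 and 4.04 CPM in trained Tau libraries, against 5.88, 8.41, 7.85 and 17.1 CPM in naive Tau libraries (-1.19 ± 0.36, edgeR adjusted p = 0.131). Cfap70 had 1.07, 0.817, 1.16 and 1.33 CPM in trained Tau libraries, against 1.89, 2.06, 1.91 and 2.80 CPM in naive Tau libraries (-1.01 ± 0.25, edgeR adjusted p = 0.0825). These 3 genes shared the pattern of non-overlapping groups with 11 other Cfap genes.

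The abundant, steady Cfap genes did not share it. Cfap36 had 111.7, 115.8, 105.1 and 109.9 CPM in trained Tau libraries and 106.7, 100.7, 98.4 and 106.1 CPM in naive Tau libraries, and Cfap97 had 38.6, 39.9, 38.6 and 40.3 CPM in trained Tau libraries and 37.9, 38.5, 34.4 and 33.4 CPM in naive Tau libraries. Both were slightly higher in trained mice, by log2 differences of 0.10 (edgeR adjusted p = 0.318) and 0.13 (edgeR adjusted p = 0.325). The 24 genes with a within-group r above 0.5 all had a lower mean in trained Tau mice, with a median log2 difference of -0.771. Of the 15 genes with an r under 0.2, 5 did, with a median of 0.0395. Both sets were drawn from these libraries, so the contrast between them is a description.

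**Figure D4:**
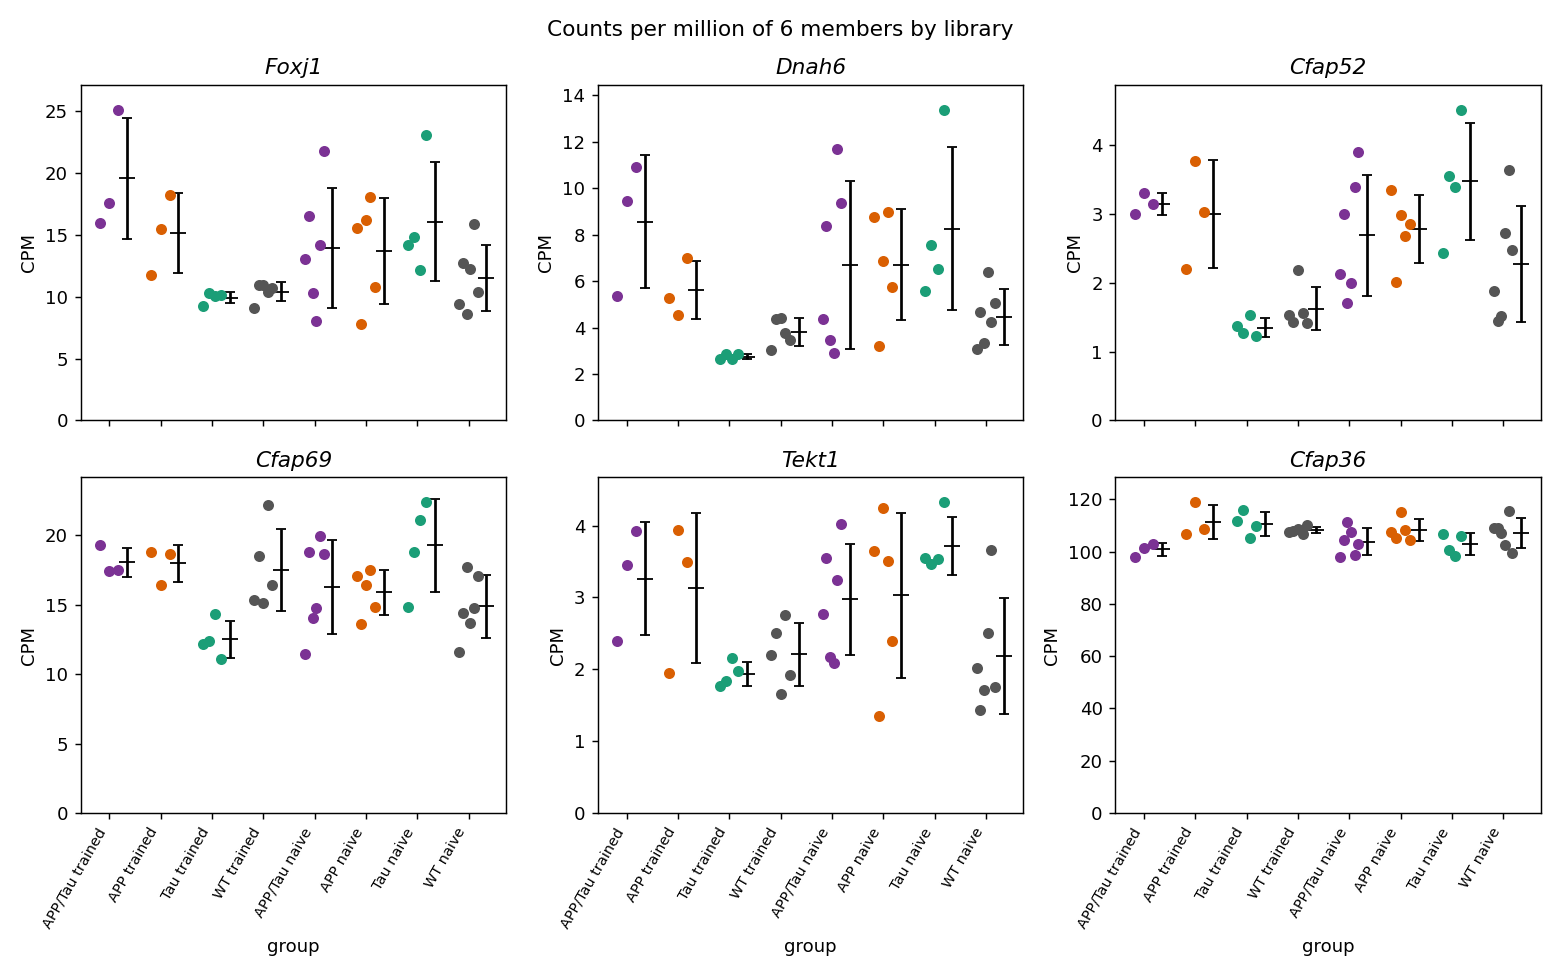
CPM of Foxj1, Dnah6, Cfap52, Cfap69, Tekt1 and Cfap36 in each library (points) with group means and SDs (bars), for trained groups and then naive groups, on linear axes from 0. In the first 5 genes trained Tau libraries are tightly placed below every naive Tau library, as for Cfap52 at 1.22 to 1.53 CPM against 2.43 to 4.51 CPM, while Cfap36 stays between 97.93 and 118.9 CPM in every library.

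Other gene lists differed in level between these groups as well. Of 72 tested motile cilium genes outside the rule, edgeR called 0, 40 were lower and 1 higher in trained Tau mice at an unadjusted p under 0.05, and the median log2 difference was -0.406. Ependymal markers gave 11 lower of 22 (median -0.354), with a summed level of 636 to 679 CPM in trained Tau libraries and 744 to 845 CPM in naive Tau libraries. Choroid plexus markers gave 31 lower of 33 (median -2.37), with 237 to 881 CPM in trained Tau libraries and 1850 to 4850 CPM in naive Tau libraries. No choroid or ependymal marker was at 0 in all libraries. Thalamic markers gave 13 lower of 18 (median -1.24), mural and meningeal markers 7 lower of 16 (median -0.649) and striatal markers 2 lower of 18 (median -0.392).

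Hippocampal neuron markers went the other way, with 10 higher of 16 (median 0.251). Multiciliated fate genes gave 3 lower and 2 higher of 16 (median -0.125), primary cilium genes 3 lower and 2 higher of 60 (median -0.0279), sperm markers 1 lower and 1 higher of 8 tested (median -0.172), astrocyte markers 0 of 14 (median -0.0621) and microglia markers 1 higher of 14 (median -0.0779). In each of these lists edgeR called 0 genes. With the choroid score of each library as a covariate, 13 of the 59 ciliary genes were left at an unadjusted p under 0.05, against 9.18% of all genes, and the median was -0.269. The 1 choroid-rich trained Tau library had a ciliary score of -0.214, against 0.0386 to 0.473 in the 4 naive Tau libraries, which were all choroid-rich. That trained library had a choroid score of -0.0874, below the 0.785 to 1.97 of the naive Tau libraries. They were therefore not matched in choroid content. How far choroid plexus or ventricle lining in the dissection accounts for the ciliary difference was not tested beyond these values.

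The library numbers in the labels did not overlap between these groups, being 3, 4, 8 and 9 in trained Tau and 11, 33, 34 and 36 in naive Tau. The labels do not say what the numbers stand for. With the number as a covariate 8 of the 59 genes were at an unadjusted p under 0.05, against 6.36% of all genes, and the median was -0.314. Most of the lowest-numbered libraries were choroid-poor and most of the later ones choroid-rich. The number and the choroid score are therefore not independent checks.

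Trained Tau against trained WT mice compares the same Tau libraries with trained controls, so the trained Tau values are shared with the comparison above. Fewer genes stood out. In trained Tau mice 41 of 59 genes had a lower mean, with a median log2 difference of -0.144. edgeR called 0 of 59, against 0.303% of all genes, and 10 were lower at an unadjusted p under 0.05 (16.9%), close to the 15.2% of all genes. DESeq2 called Cfap69 and Cfap100 among 2.77% of all genes, and limma-voom called Cfap100 among 5.12%. In all, 6 of 59 genes were lower in every trained Tau than in every trained WT library (Cfap69, Cfap100, Cfap74, Cfap46, Cfap65 and Dnah6), against 4.04% of all genes, and none was higher in every library, against 2.95%. Without the library labelled Tau trained replicate 4 the first count was 7, against 5.69%, and 8 genes were at an unadjusted p under 0.05, against 14%.

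Cfap69 had 12.2, 12.4, 14.3 and 11.1 CPM in trained Tau libraries, against 15.3, 18.5, 15.1, 22.2 and 16.4 CPM in trained WT libraries (log2 difference -0.48 ± 0.14, edgeR adjusted p = 0.0983). Cfap100, which anchors inner dynein arms, had 6.34, 6.71, 6.47 and 8.01 CPM in trained Tau libraries, against 12.99, 13.3, 9.02, 8.93 and 9.60 CPM in trained WT libraries (-0.65 ± 0.20, edgeR adjusted p = 0.114). Neither gene's groups overlapped. Foxj1 and Tekt1 did overlap here: trained WT libraries had 9.06, 10.9, 10.9, 10.4 and 10.7 CPM of Foxj1 and 2.201, 2.50, 1.66, 2.75 and 1.92 CPM of Tekt1.

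The markers of other tissue also differed between trained Tau and trained WT mice. Choroid plexus markers had a median log2 difference of -0.436 and ependymal markers one of 0.000834, with no gene of either list at an unadjusted p under 0.05. Striatal markers were lower for 13 of 18 (median -0.967), with a summed level of 252 to 309 CPM in trained Tau libraries and 241 to 931 CPM in trained WT libraries. The striatal value rests on 1 library: WT trained replicate 4 had a striatal score of 2.52, while the other trained WT libraries had -0.119 to -0.504 and the trained Tau libraries -0.676 to 0.109. Without WT trained replicate 4 the ciliary median was -0.104, with 10 genes at an unadjusted p under 0.05. The part of these markers in the ciliary difference was not tested further.

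Trained APP/Tau against trained WT mice gave the opposite direction. Here 43 of 59 genes had a higher mean, with a median log2 difference of 0.20. edgeR called 0 of 59, against 0.0552% of all genes, and 14, all higher, had an unadjusted p under 0.05 (23.7%), against 10.2% of all genes. limma-voom called 0, and DESeq2 called Cfap52 and Foxj1 among 0.582% of all genes. In every trained APP/Tau library 11 genes exceeded every trained WT library, against 3.99% of all genes. They were Cfap52, Foxj1, Cfap161, Dnah6, Cfap206, Cfap45, Dnah11, Cfap53, Cfap126, Rsph1 and Cfap65. Cfap36 alone was lower in every library, against 2.31%.

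Foxj1 had 15.98, 17.6 and 25.1 CPM in trained APP/Tau libraries, against 9.06 to 10.9 CPM in trained WT libraries (log2 difference 0.91 ± 0.25, edgeR adjusted p = 0.189). Cfap52 had 2.99, 3.31 and 3.14 CPM in trained APP/Tau libraries, against 1.54, 1.43, 2.18, 1.57 and 1.41 CPM in trained WT libraries (0.96 ± 0.27, edgeR adjusted p = 0.189). Dnah6 had 5.35, 9.44 and 10.9 CPM in trained APP/Tau libraries, against 3.05, 4.38, 4.43, 3.78 and 3.45 CPM in trained WT libraries (1.17 ± 0.37, edgeR adjusted p = 0.259). In all 3 genes the groups stood apart, and the APP/Tau values were tight for Cfap52 and wide for Foxj1 and Dnah6.

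Ependymal markers were higher for 10 of 22 (median 0.549), choroid plexus markers for 7 of 33 (median 1.72), motile cilium genes outside the rule for 22 of 72 (median 0.323), mural and meningeal markers for 7 of 16 (median 0.697) and microglia markers for 8 of 14 (median 0.451), all at an unadjusted p under 0.05 with 0 called by edgeR. With the choroid score as a covariate 6 ciliary genes were left, against 7.32% of all genes, with a median of 0.173. The choroid-poor trained APP/Tau library had a ciliary score of 0.187, against a mean of -0.0958 in the 3 choroid-poor trained WT libraries. Its choroid score was -1.18, above the -1.87 to -1.48 of those WT libraries. Without APP/Tau trained replicate 2 the median was 0.36, and without replicate 3 it was 0.122 with 7 genes at an unadjusted p under 0.05.

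Trained APP against trained WT mice shares the WT libraries with that comparison. In trained APP mice 49 of 59 genes had a higher mean, with a median log2 difference of 0.21. edgeR, DESeq2 and limma-voom each called 0 of 59. In edgeR 0.0276% of all genes were called, and 10 ciliary genes, all higher, had an unadjusted p under 0.05 (16.9%), against 5.84% of all genes. DESeq2 gave 10 and limma-voom 3 at that level. Cfap52 had 2.19, 3.77 and 3.03 CPM in trained APP libraries, the lowest just above the highest of 2.18 CPM in trained WT libraries (0.88 ± 0.27, edgeR adjusted p = 0.694). Foxj1 had 11.8, 15.5 and 18.2 CPM in trained APP libraries, all above the WT range of 9.06 to 10.9 CPM (0.55, edgeR adjusted p = 0.841). Choroid plexus markers were higher for 14 of 33 (median 1.71) and ependymal markers for 5 of 22 (median 0.27). Mural and meningeal markers were higher for 3 of 16 (median 0.51), and striatal markers lower for 9 of 18 (median -0.883) against the same WT libraries, replicate 4 among them. With the choroid score as a covariate 1 ciliary gene was left at an unadjusted p under 0.05, against 4.33% of all genes. Without APP trained replicate 2 the count at that level was 3, and without replicate 1 it was 19.

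Naive Tau against naive WT mice asks what the Tau transgene does without training. In naive Tau mice 45 of 59 genes had a higher mean, with a median log2 difference of 0.29, against -0.00076 over all genes. edgeR, DESeq2 and limma-voom called 0 of 59. In edgeR 0.0276% of all genes were called, and 19 ciliary genes, all higher, had an unadjusted p under 0.05 (32.2%), against 9.31% of all genes. DESeq2 gave 18 and limma-voom 19. This count rested on 1 library: without Tau naive replicate 4 it was 2, against 6.68% of all genes, and the median was 0.146.

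Tekt1 had the smallest p. It had 3.54, 3.47, 3.54 and 4.32 CPM in naive Tau libraries, against 1.44, a median of 1.89 and 3.66 CPM at the lowest, middle and highest of 6 naive WT libraries (0.75 ± 0.24, edgeR adjusted p = 0.412). Dnah6 had 5.59 to 13.4 CPM in naive Tau libraries, against 3.08, a median of 4.47 and 6.38 CPM in naive WT libraries (0.89 ± 0.32). Foxj1 had 12.2 to 23.1 CPM in naive Tau libraries, against 8.62, a median of 11.3 and 15.9 CPM in naive WT libraries (0.48 ± 0.22, edgeR adjusted p = 0.526). In each gene most naive Tau values lay in the upper part of the WT range or above it. Ependymal markers were higher for 9 of 22 (median 0.325) and other motile cilium genes for 23 of 72 (median 0.288). Hippocampal neuron markers were lower for 5 of 16 (median -0.208), and all 18 thalamic markers had a higher mean (median 0.341), 1 of them at an unadjusted p under 0.05. Choroid plexus markers had a median of 1.12 with 0 at an unadjusted p under 0.05, and all 4 naive Tau libraries but only 2 of 6 naive WT libraries were choroid-rich. With the choroid score as a covariate 4 ciliary genes were left, against 6.31% of all genes.

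Naive APP and naive APP/Tau mice gave little. In naive APP against naive WT mice, 30 of 59 genes had a higher mean, the median log2 difference was 0.0098, and all 3 tools called 0, against 0.0355% of all genes in edgeR. At an unadjusted p under 0.05 edgeR gave 3 genes (5.08%, against 3.68% of all genes), DESeq2 4 and limma-voom 6. Without APP naive replicate 2, the library with the lowest ciliary score (-0.469), edgeR gave 11 and the median was 0.0995. The outer arm motor Dnah9 had the smallest p. Its naive APP libraries held 28.7, 21.96, 25.6, 32.3 and 23.3 CPM, against 16.7 to 23.3 CPM in naive WT libraries (0.36 ± 0.11, edgeR adjusted p = 1).

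In naive APP/Tau against naive WT mice, 42 of 59 genes had a higher mean and the median was 0.14. All 3 tools called 0, against 0.067% of all genes in edgeR. At an unadjusted p under 0.05 edgeR gave 4 higher and 2 lower (10.2%, against 7.48% of all genes), DESeq2 9 and limma-voom 5. Without APP/Tau naive replicate 5 edgeR gave 2 at that level, and without replicate 4 it gave 12. The smallest p was that of the assembly factor Cfap298, which was lower by a log2 difference of -0.16 ± 0.055 (edgeR adjusted p = 0.611). Foxj1 in the 6 naive APP/Tau libraries ran from 8.01 over a median of 13.6 to 21.8 CPM and so spanned the WT range on both sides. The ciliary score was 0.247 on average in the 3 choroid-rich naive APP/Tau libraries and -0.114 in the 3 choroid-poor ones.

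Training in the other genotypes left few differences. In trained against naive APP mice 45 of 59 genes had a higher mean with a median of 0.14. edgeR called 0 of 59 and of all genes (0%), and 3 had an unadjusted p under 0.05 (5.08%, against 5.24% of all genes), with 0 called and 3 at that level by DESeq2 and 0 and 4 by limma-voom. Without APP naive replicate 2 the median was 0.0302. The basal body gene Cfap157 was first, with 2.11, 2.03 and 1.57 CPM in trained APP libraries and 1.36, 0.749, 1.34, 1.28 and 1.34 CPM in naive APP libraries. Its groups did not overlap (0.62 ± 0.18, edgeR adjusted p = 0.883).

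In trained against naive APP/Tau mice 36 of 59 genes had a higher mean with a median of 0.11. edgeR called 0 of 59 and of all genes (0%), and 1 gene, the tektin Tekt2, had an unadjusted p under 0.05 (1.69%, against 3.07% of all genes). DESeq2 and limma-voom each called 0 with 1 at that level. Without APP/Tau trained replicate 2 edgeR gave 7 at that level. The median was 0.0527 without APP/Tau naive replicate 4, 0.184 without APP/Tau naive replicate 6, and 0.203 with the replicate number as a block. Tekt2 had 1.41, 0.845 and 0.959 CPM in trained APP/Tau libraries, against 0.412 to 1.13 CPM in naive APP/Tau libraries, so its groups overlapped (0.64 ± 0.30, edgeR adjusted p = 1).

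In trained against naive WT mice 26 of 59 genes had a higher mean with a median of -0.0429. edgeR called 0 of 59 and of all genes (0%), and 1 higher and 3 lower genes had an unadjusted p under 0.05 (6.78%, against 5.85% of all genes). DESeq2 and limma-voom called 0, with 4 and 2 at that level. Without WT naive replicate 5 the median was 0.0147. Cfap100 had 8.93 to 13.3 CPM in trained WT libraries, against 4.76 to 9.22 CPM in naive WT libraries (0.43 ± 0.17, edgeR adjusted p = 0.845). Foxj1 had 9.06 to 10.9 CPM in trained WT libraries, inside its naive WT range.

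Whether training acted differently by genotype was tested with interaction terms, each the training difference of a transgenic genotype minus that of WT. For Tau, 45 of 59 genes had a negative term with a median of -0.458, against -0.0081 over all genes. edgeR called 0 of 59 and of all genes (0%), and 20 had an unadjusted p under 0.05, 19 of them negative (33.9%, against 9.04% of all genes). DESeq2 called 1, Cfap69, with 21 at that level, and limma-voom called 0 with 26. The shares of all genes by these other tools are not given here, so their counts cannot be set against them. Cfap69 had a term of -0.86 ± 0.19 (edgeR adjusted p = 0.207). Without the library labelled Tau trained replicate 4 there were 18 genes at an unadjusted p under 0.05 against 8.28% of all genes, without Tau naive replicate 4 there were 8 against 7.69%, and with the choroid score as a covariate there were 10 against 9.47%.

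For APP the interaction had a median of 0.139, edgeR called 0 of 59 and of all genes (0%), and 2 were under 0.05 unadjusted (3.39%, against 2.67% of all genes). For APP/Tau the median was 0.103, edgeR called 0 of 59 and of all genes (0%), and 1 gene, Cfap52, had an unadjusted p under 0.05 (1.69%, against 4.14%). Without APP naive replicate 2 the APP median was 0.0362, and without APP/Tau trained replicate 3 the APP/Tau median was 0.0182. DESeq2 and limma-voom called 0 in both, with 2 genes each at that level.

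Departure from additivity, the APP/Tau difference minus the sum of the APP and Tau differences, was of opposite sign in naive and trained mice. In naive mice 42 of 59 genes had a negative term (median -0.116). edgeR called 0 of 59 and of all genes (0%), and 7 negative and 2 positive terms had an unadjusted p under 0.05 (15.3%, against 7.13% of all genes), led by the spoke base gene Cfap61 (edgeR adjusted p = 0.616). In trained mice 38 of 59 had a positive term (median 0.175). edgeR called 0 of 59, against 0.0118% of all genes, and 7 positive and 2 negative terms had an unadjusted p under 0.05 (15.3%, against 9.39%), led by the central apparatus gene Cfap46 (edgeR adjusted p = 0.468). DESeq2 called 0 with 9 at that level in each, and limma-voom called 0 with 14 in naive and 4 in trained mice. The library labelled Tau trained replicate 4 enters the trained term, whose median was 0.237 without it and 0.109 without APP/Tau trained replicate 3. The naive median was -0.016 without Tau naive replicate 4 and 0.00897 with the choroid score as a covariate.

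Averages over groups gave the last 3 comparisons. For training averaged over the 4 genotypes, 39 of 59 genes had a negative difference (median -0.0449), edgeR called 0 of 59 and of all genes (0%), and 3 had an unadjusted p under 0.05 (5.08%, against 7.95% of all genes). DESeq2 and limma-voom called 0 with 3 each at that level. The median was -0.0453 without the library labelled Tau trained replicate 4, -0.0677 without APP naive replicate 2 and -0.021 without Tau naive replicate 4, and it was 0.0186 with the library number as a covariate. For Tau carriers against non-carriers the median was 0.0652. edgeR called 0 of 59, against 0.835% of all genes, and 3 higher and 6 lower genes had an unadjusted p under 0.05 (15.3%, against 13.2%), led by Cfap410, known to bind the kinase Nek1 (-0.11 ± 0.039, edgeR adjusted p = 0.168). DESeq2 called 0 with 10 at that level and limma-voom 0 with 6. Without the library labelled Tau trained replicate 4 the median was 0.0654 with 6 genes under 0.05, and without APP/Tau trained replicate 3 it was 0.0394 with 4.

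For APP carriers against non-carriers 46 of 59 genes had a positive difference, with a median of 0.113 against 0.0052 over all genes. edgeR called 0 of 59, against 0.0985% of all genes, and 16 higher and 1 lower gene had an unadjusted p under 0.05 (28.8%, against 9.95% of all genes). DESeq2 called Cfap52 with 17 at that level, and limma-voom called 0 with 15. No share of all genes by DESeq2 or limma-voom is given here to set beside these counts. Cfap52 was higher in APP carriers by 0.49 ± 0.12 (edgeR adjusted p = 0.173) and Foxj1 by 0.39 (edgeR adjusted p = 0.28). Choroid plexus markers were higher as well, 32 of 33 of them at an unadjusted p under 0.05 (median 1.11), as did 28 of 72 other motile cilium genes (median 0.164) and 4 of 22 ependymal markers (median 0.165). With the choroid score as a covariate 8 ciliary genes were left at an unadjusted p under 0.05, against 7.43% of all genes, with a median of 0.0805. Without the library labelled Tau trained replicate 4 there were 17, with a median of 0.123.

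**Figure D5:**
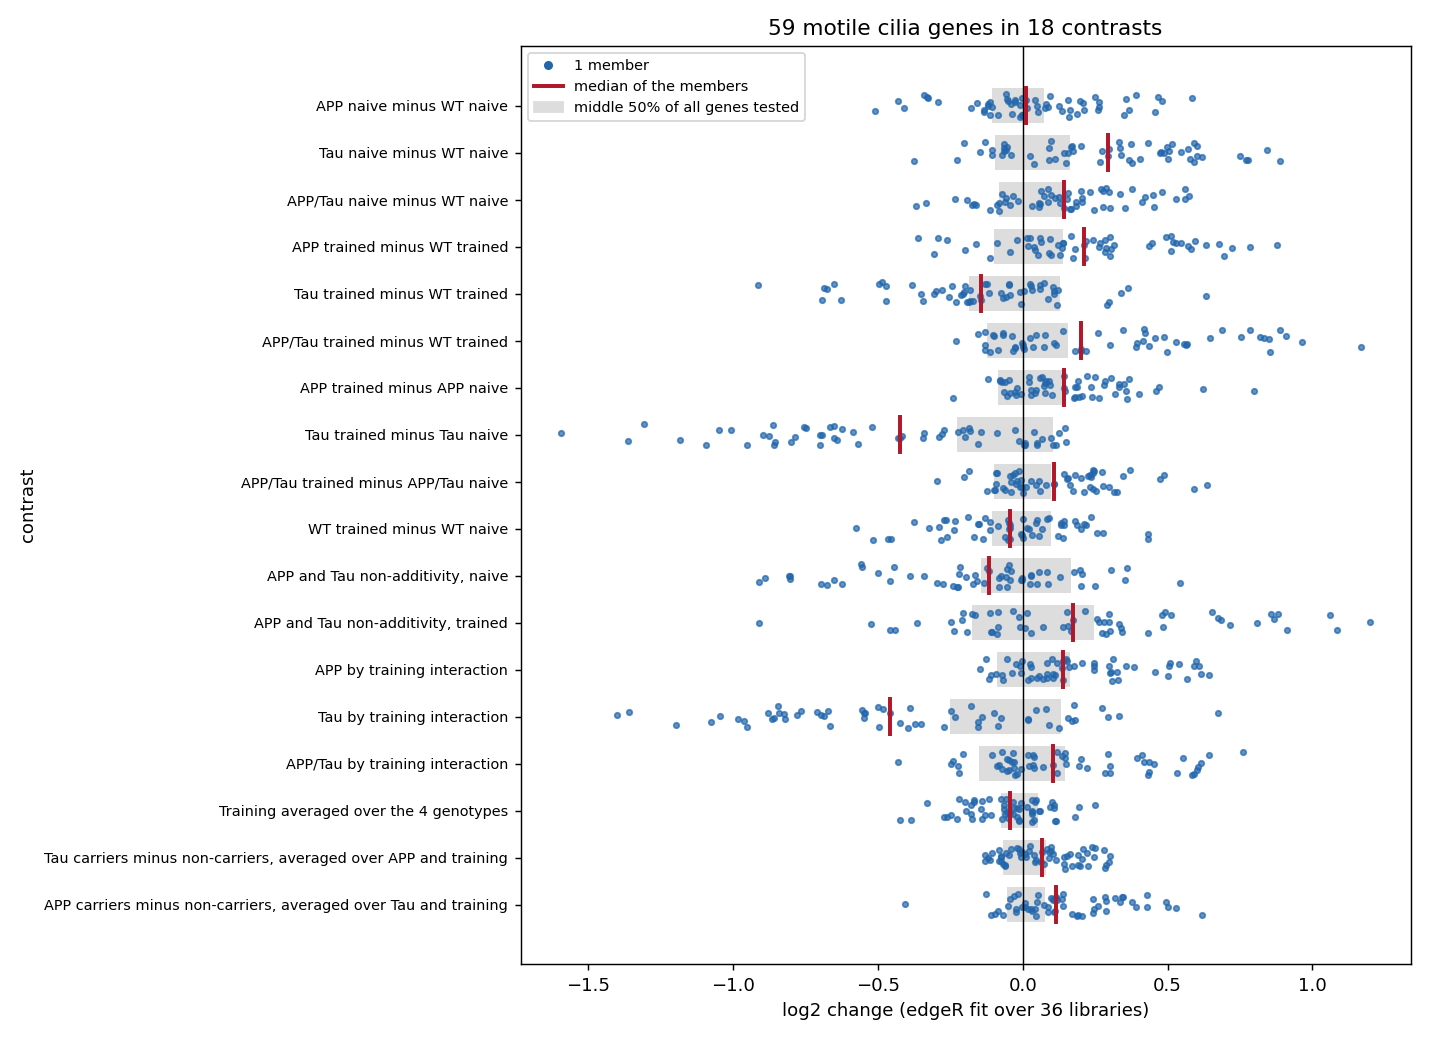
Log2 difference of each of the 59 genes (points, edgeR) in the 18 comparisons, with the median of the genes (red line) and the middle 50% of all 25382 genes (grey box). The ciliary median lies outside the grey box in 8 comparisons: below it in trained minus naive Tau (-0.42) and the Tau interaction (-0.46), and above it in naive Tau (0.29), trained APP (0.21), trained APP/Tau (0.20) and naive APP/Tau (0.14) minus their WT groups, in trained minus naive APP/Tau (0.11) and in APP carriers (0.11).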

How the data were processed

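The authors deposited 1 table of raw read counts per gene symbol, read here as counts. Trimmomatic 0.39 and the mm39 build are named, per the submitters' processing notes. The aligner, counter, annotation and strand setting were not given in the sources used here. Small counts (1 to 10) were even in 54.69% of values, against 49.99% above 1000.

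Genes were kept with edgeR's filterByExpr (minimum count 10, minimum total 15). Counts were scaled by TMM, and log2 CPM used a prior count of 2. All 36 libraries and 8 groups entered 1 quasi-likelihood fit (edgeR 4.0.16, R 4.3.3) with 18 contrasts, with Benjamini-Hochberg adjustment over all 25382 genes and a threshold of 0.05. Every p-value is two-sided. The steps were tested on simulated data.

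Alternatives were RLE size factors, no filter, DESeq2 1.42.0, limma-voom 3.58.1 with quality weights, the compared groups alone, a block for the replicate number, a covariate for the library number or for the choroid score, summed CPM, and leaving out each library. Lists of other motile cilium, multiciliated, ependymal, choroid plexus, primary cilium, sperm, striatal, thalamic, astrocyte, microglia, neuron and mural genes were compared by counts and medians.

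The genes and lists were chosen with earlier results of these data known. Genes named are Foxj1, the smallest p of each comparison of a pair of groups and each average, the 3 highest mean CPM per family, the 5 largest and 5 smallest SDs and the 12 most alike genes. Others, such as Dnah6, Dnah11, Cfap65, Cfap70 and Rsph1, were named after their values were seen. All same-numbered replicates deviated together in trained and naive APP/Tau mice only (correlations 0.191 to 0.274 over 3 pairs). These correlations are weak, and those of trained APP with trained WT mice ran from -0.317 to 0.403. The labels do not state that the numbers pair the samples.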

Additional observations from a re-analysis of the deposited data

Results flagged for a closer look

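Within the groups of 4 to 6 libraries, 156 sets of values (the ciliary score and 25 genes in each group) were searched for 1 library standing apart from the rest by Dixon's criterion, and 15 did. Chance alone would mark about 1 in 20 sets, that is 5%.

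In 2 naive groups the marked library also had an extreme ciliary score. APP naive replicate 2, the lowest of all, had 0.749 CPM of Cfap157 (nearest library 1.28 CPM) and 4.04 CPM of Rsph4a (nearest 7.35 CPM). Tau naive replicate 4, the highest of all, had 4.32 CPM of Tekt1 (nearest 3.54 CPM). APP/Tau naive replicate 5 was high for the motors Dnah1 at 11.7 CPM (nearest 8.59 CPM) and Dnah5 at 9.39 CPM (nearest 7.47 CPM).

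In trained Tau mice, Rsph9 stood at 12.1 CPM in replicate 2 (nearest 10.7 CPM). Rsph3a stood at 11.3 CPM in the library labelled Tau trained replicate 4 (nearest 10.3 CPM). In trained WT mice, Foxj1 was low at 9.06 CPM in replicate 1 (nearest 10.4 CPM), and replicate 3 had a high Cfap52 of 2.18 CPM (nearest 1.57 CPM) and a low Cfap410 of 23.3 CPM (nearest 26.9 CPM). Tekt5 reached 12.7 CPM in WT trained replicate 4 (nearest 7.7 CPM). Cfap20 was high at 28.3 CPM in APP naive replicate 3 (nearest 25.2 CPM) and at 26.7 CPM in Tau naive replicate 1 (nearest 23.7 CPM). WT naive replicate 5 had a low Cfap100 of 4.76 CPM (nearest 7.88 CPM) and a high Rsph9 of 14.2 CPM (nearest 12.1 CPM).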

How the results depend on the processing

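Of 932 alternative values for counts of called genes, medians and group levels, 915 stayed within the tolerance set (a count within 1.5 times, a median within the pooled SD of the score, 0.156, a group level within its SD). Of 1820 for single genes 1793 kept their direction and side of the threshold, 25 passing the threshold where edgeR's main result had not. Counts called, 0 in every comparison by edgeR, were as follows elsewhere. In trained minus naive Tau they were 12 by DESeq2, 11 by limma-voom, 8 with the compared groups alone and 0 to 6 when each library was left out. In trained Tau minus trained WT they were 2 by DESeq2, 1 by limma-voom, 1 with the compared groups alone and 1 with the library number as a covariate. DESeq2 called 2 in trained APP/Tau minus trained WT, 1 in the Tau by training interaction and 1 in APP carriers, the last being 0 to 1 over left-out libraries (1 without WT naive replicate 5). The median for trained APP/Tau minus trained WT was 0.122 to 0.36 over left-out libraries. The Tau interaction's median was -0.287 with the library number and -0.243 with the choroid score as a covariate. From log2 summed CPM the score was -0.118 in trained Tau and -0.0206 in trained WT. The log2 difference of Tekt5 in trained minus naive APP/Tau was -0.0158 to 0.466 over left-out libraries (-0.0158 without APP/Tau trained replicate 3), and that of Cfap61 for training averaged was 0.0389 with the library number. Within that tolerance some small medians changed sign: naive APP minus WT (-0.0244 with the choroid score, -0.0203 with the library number, -0.00251 without APP naive replicate 4), trained minus naive WT (0.0034 by limma-voom, 0.00375 with the block, 0.0147 without WT naive replicate 5), naive non-additivity (0.00897 with the choroid score) and training averaged (0.0186 with the library number). The cause of these shifts was not tested. Counts printed without a share of all genes from the same fit cannot be set against that share.

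With the replicate number as a block edgeR called 0 genes in every comparison, with a median of -0.422 in trained minus naive Tau and 0.203 in trained minus naive APP/Tau. The labels state no pairing, so the libraries of a block are known to share only a number. The older edgeR quasi-likelihood method, chosen after seeing the data, called 0 of the 59 in every comparison, with a median of -0.41 in trained minus naive Tau. DESeq2 left up to 10 of the 59 genes without an adjusted p. Averaged comparisons have no fit to the compared groups alone. Taking all genes with a count was a new fit and adjustment over more genes, with the same 59 genes tested, since all 59 passed the filter. Depth limits the rarest genes: 13 of 59 had a mean CPM under 1.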

Other observations

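Outside the 59 genes, the 12 tested genes whose within-group log2 CPM most resembled the ciliary score over the 36 libraries were Ttc21a (r = 0.904), Spata17 (r = 0.864), Lrrc23 (r = 0.863), Ak7 (r = 0.855), Mycbpap (r = 0.847), Ppp1r36 (r = 0.838), Spata18 (r = 0.827), C230072F16Rik (r = 0.817), Tsnaxip1 (r = 0.816), Ccdc146 (r = 0.792), Ccdc162 (r = 0.779) and Maats1 (r = 0.765). They were picked for this likeness, so the values describe it and test nothing.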
